A study of Mus musculus with 6 samples.

Results

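The enzymes that write and remove histone marks were followed here as 44 named genes in WT and Piezo1cKO leukemia stem cells (LSCs) of mice with MLL-AF9 induced acute myeloid leukemia (AML). They were taken by gene symbol from a table of 55367 genes, of which 26402 had values, and were sorted into 8 classes: 6 genes of Polycomb repressive complex 2 (PRC2), 8 of PRC1, 3 of the Polycomb deubiquitinase PR-DUB, 9 lysine methyltransferases, 6 lysine demethylases, 5 acetyltransferases, 5 deacetylases and corepressors, and 2 arginine methyltransferases. The Piezo1cKO donors carried Mx1-cre with both Piezo1 alleles floxed, and the WT donors were floxed littermates without Cre. Donors of both groups were 8 to 10 weeks old C57BL/6J mice and had received the interferon inducer pIpC. Their lineage-negative bone marrow cells were transduced with a retrovirus carrying MLL-AF9 and YFP and transplanted, and YFP+ Lin- Sca-1- c-Kit+ CD16/32hi CD34+ cells were sorted for RNA-seq, with 3 libraries a group. Mx1-cre acts in many cell types, and here Piezo1 was deleted before the cells were transformed, so both groups share the fusion gene and pIpC and differ in Cre as well as in Piezo1. The labels do not say whether the libraries of a group came from separate mice.

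PRC2 places the repressive H3K27 methyl mark through Ezh2 or Ezh1, and PRC1 places ubiquitin on histone H2A through Ring1 or Rnf2, which both need a PCGF partner such as Bmi1. CBX proteins let canonical PRC1 bind the PRC2 mark, while PR-DUB removes the ubiquitin. KMT2 enzymes place H3K4 methyl marks at promoters and enhancers, acetyltransferases such as Crebbp and Ep300 open chromatin, and deacetylases such as Hdac1 and Hdac2 reverse that. In AML with MLL fusions, several of these proteins, among them Ezh2, Kdm1a and the deacetylases, are well-known supports of self-renewal or drug targets.

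The promoters of 6 members that the results below turn on are shown. They are 4 of genes that were lower in Piezo1cKO LSCs (Bmi1, Hdac2, Ezh2 and Asxl1) and 2 of genes that were higher (Ring1 and Kmt2d), set side by side. Each is the RefSeq sequence of 300 bases on GRCm38.p6, from 250 bases before the start of the gene to 50 after it, written 5′ to 3′ on the strand of the gene. Capitals mark every match, on either strand, to 6 short motifs: the E-box CACGTG, the hypoxia response core ACGTG that lies within it, the E2F pattern TTTNNCGC, the ATF4 element TGATGNAA, the NF-Y box CCAAT and the Sp1 box GGGCGG.
Bmi1, chr2:18676768-18677067, plus strand: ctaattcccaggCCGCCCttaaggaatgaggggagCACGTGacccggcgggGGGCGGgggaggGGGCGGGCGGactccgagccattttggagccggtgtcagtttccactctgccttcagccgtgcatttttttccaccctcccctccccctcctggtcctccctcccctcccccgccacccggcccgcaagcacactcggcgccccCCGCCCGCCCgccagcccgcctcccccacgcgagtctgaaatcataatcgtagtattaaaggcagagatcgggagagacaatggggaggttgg
Hdac2, chr10:36974294-36974593, plus strand: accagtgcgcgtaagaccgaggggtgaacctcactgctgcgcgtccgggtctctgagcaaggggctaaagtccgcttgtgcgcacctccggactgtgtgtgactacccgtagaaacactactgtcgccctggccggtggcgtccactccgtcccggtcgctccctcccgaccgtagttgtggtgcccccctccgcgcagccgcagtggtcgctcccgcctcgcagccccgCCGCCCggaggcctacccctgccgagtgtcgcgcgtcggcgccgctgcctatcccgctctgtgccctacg
Ezh2, chr6:47594981-47595280, minus strand: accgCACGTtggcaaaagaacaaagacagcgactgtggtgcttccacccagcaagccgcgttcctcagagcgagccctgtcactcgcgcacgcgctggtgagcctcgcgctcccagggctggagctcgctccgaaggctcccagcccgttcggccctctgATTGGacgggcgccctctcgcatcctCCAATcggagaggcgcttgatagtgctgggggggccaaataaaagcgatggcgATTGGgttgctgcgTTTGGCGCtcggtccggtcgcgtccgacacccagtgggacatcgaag
Asxl1, chr2:153345580-153345879, plus strand: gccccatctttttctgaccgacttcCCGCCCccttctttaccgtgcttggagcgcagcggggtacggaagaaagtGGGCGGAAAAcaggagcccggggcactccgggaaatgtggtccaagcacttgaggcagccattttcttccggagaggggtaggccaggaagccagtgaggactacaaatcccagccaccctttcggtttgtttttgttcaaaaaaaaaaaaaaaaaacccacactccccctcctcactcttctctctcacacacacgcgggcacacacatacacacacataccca
Ring1, chr17:34024631-34024930, minus strand: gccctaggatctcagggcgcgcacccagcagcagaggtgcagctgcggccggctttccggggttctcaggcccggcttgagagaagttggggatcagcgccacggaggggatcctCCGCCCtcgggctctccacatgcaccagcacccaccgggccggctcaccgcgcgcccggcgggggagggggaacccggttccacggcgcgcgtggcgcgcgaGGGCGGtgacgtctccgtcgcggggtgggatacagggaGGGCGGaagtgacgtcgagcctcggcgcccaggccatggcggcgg
Kmt2d, chr15:98871156-98871455, minus strand: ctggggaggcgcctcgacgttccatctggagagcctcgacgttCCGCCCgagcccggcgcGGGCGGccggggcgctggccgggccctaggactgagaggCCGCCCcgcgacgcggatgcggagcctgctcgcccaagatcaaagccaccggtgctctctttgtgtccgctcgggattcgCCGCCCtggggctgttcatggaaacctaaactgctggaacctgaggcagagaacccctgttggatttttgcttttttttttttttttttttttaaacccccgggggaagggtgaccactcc
The Bmi1 window held 6 matches to the Sp1 box and 1 E-box, which counts as 2 matches to the hypoxia response core because the E-box reads the same on both strands. The Ezh2 window held 3 NF-Y boxes, 1 E2F pattern and 1 hypoxia response core and no Sp1 box. In contrast, of the 6 motifs searched, Ring1, Kmt2d and Hdac2 had only Sp1 boxes, with 3, 4 and 1 matches. Asxl1 had 2 Sp1 boxes and 1 E2F pattern, which overlaps the second of them. The authors gave GCGTR (R is A or G) as the HIF1A binding motif, which differs from ACGTG and was not searched. It is therefore unmarked in these windows, among them as gcgtg in Ring1 and gcgta in Hdac2. Of the 44 members, 35 had a promoter in the reference table. The Sp1 box was found in 26 of these 35 genes (74.3%) and in 38.2% of all 27018 genes with a promoter, and it was found in 8 of 11 members that were higher and 10 of 13 that were lower. Member promoters were also richer in G and C, with a median of 66.0% over 47 promoters against 52.7% over all 32841. The ACGTG form of the hypoxia response core was found in 2 of 11 higher members and 3 of 13 lower members. It was also found in 8 of 11 members that did not pass the test, against 21.8% of all genes. Other forms, such as GCGTG, were not counted. These matches describe letters only and no binding was measured.

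The libraries held 14112102 to 15483587 recovered reads each, with a median of 15406234 in WT and 14456719 in Piezo1cKO libraries. The deposited values have the form of regularized log2 values, which pull differences toward 0. The transform was therefore undone to give reads, rounded to whole numbers. Normalised reads below are these reads divided by the size factor of the library. Piezo1, the targeted gene, fell from 100.9, 92.8 and 108.7 normalised reads in WT to 36.6, 56.5 and 45.8 in Piezo1cKO libraries, although 24.6% of its exon bases are shared with Ctu2 on the opposite strand. Of the genes of the sorting gate, Fcgr3 did not pass the test, while Kit rose to 136% and Cd34 to 156% of the WT mean and Fcgr2b, which with Fcgr3 encodes CD16/32, fell to 48.1% (limma-voom adjusted p = 3.61e-08, 1.16e-10 and 6.40e-12). The pan-leukocyte gene Ptprc was present in every library, and Ly6a, the Sca-1 gene, had at most 1.0 normalised read in WT but 7.1 to 16.6 in Piezo1cKO. The summed reads of 8 mature neutrophil markers were 2509 to 2532 in WT and 909.4 to 956.0 in Piezo1cKO, with 5 genes lower, Retnlg at 0 throughout and Mmp8 alone higher, from 37.8 to 47.1 reads in WT to 622.9 to 650.8 in Piezo1cKO, which is most of the Piezo1cKO sum. Those of 8 mast cell and basophil markers were 5013 to 5260 and 15842 to 15977, with 6 genes higher, 0 lower and Mcpt4 at most 1.0. Of the B cell markers, 5 had enough reads to be tested, and all 5 were higher. Ighm had 10609 to 11026 normalised reads in WT and 19909 to 20240 in Piezo1cKO, and Cd79b 1526 to 1590 and 2394 to 2613. Ms4a1 and Pax5 had at most 2.0 in any library. For 8 T and NK cell markers the sum was at most 10.7 in WT and at least 41.8 in Piezo1cKO, of which Klrb1c gave 0.0 and 33.4 to 52.9, while Cd3d was lower and Cd3e, Cd3g, Cd4, Cd8a and Ncr1 had at most 3 reads. The 8 erythroid markers summed to 152.0 to 186.6 and 99.7 to 130.4, with Klf1 lower (74.7 to 83.7 and 15.3 to 24.4) and Gata1 and Alas2 not past the test. The 8 macrophage markers summed to 927.5 to 1010 and 1032 to 1174, mostly from Adgre1 and Vcam1, which did not pass, with C1qa at 0 and 4 genes higher, among them Cd163 (16.4 to 25.2 and 99.4 to 117.0) and C1qc (0.0 and 15.3 to 28.3). Of 21 proliferation genes, 17 were lower, 1 was higher and 3 did not pass the test, with summed reads of 84435 to 85338 in WT and 70976 to 72454 in Piezo1cKO. Their part in the results below was not tested, and in bulk RNA fewer cells of a type and less RNA per cell cannot be told apart. Within a group, the squared difference between 2 libraries over genes with at least 100 reads in the pair was on average 1.60 to 3.20 times what counting error gives, against 63.7 to 69.1 times between groups. As separate mice are not stated, the p-values measure only the spread between these libraries, which may be technical.

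Firstly, all members together were compared between Piezo1cKO and WT LSCs. All 44 passed the filter on low values, with means of 69.0 (Kdm1a) to 10266 (Kmt2d) normalised reads over the 6 libraries. In the limma fit of the deposited values, 12 members were higher and 16 were lower at an adjusted p under 0.05, and 16 did not pass. Those 28 members are 63.6% of the set, beside 63.0% of all 16746 genes tested, with 31.6% of all genes higher and 31.4% lower. The share of members called was thus near that of all genes tested, and the results below concern which members moved and in which direction. All 44 members had a mean of at least 50 normalised reads, beside 10246 of the 16746 genes tested. The 63.0% here and the 66.6% below were not taken at matched depth. The normalised reads of the groups did not overlap for 31 members, beside 66.6% of all genes tested. The median log2 fold change of the 44 members was 0.034 on recovered reads, and their median absolute change was 0.26, compared with -0.014 and 0.27 over 10246 genes with a mean of at least 50 normalised reads. The recovered reads gave the same call as the deposited values for every member, while 62.9% of 17352 genes were called on reads. Fold changes and adjusted p-values below are those of limma-voom on the recovered reads, in log2 units with their SE, and the calls are those of the deposited values, unless stated.

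**Figure D1:**
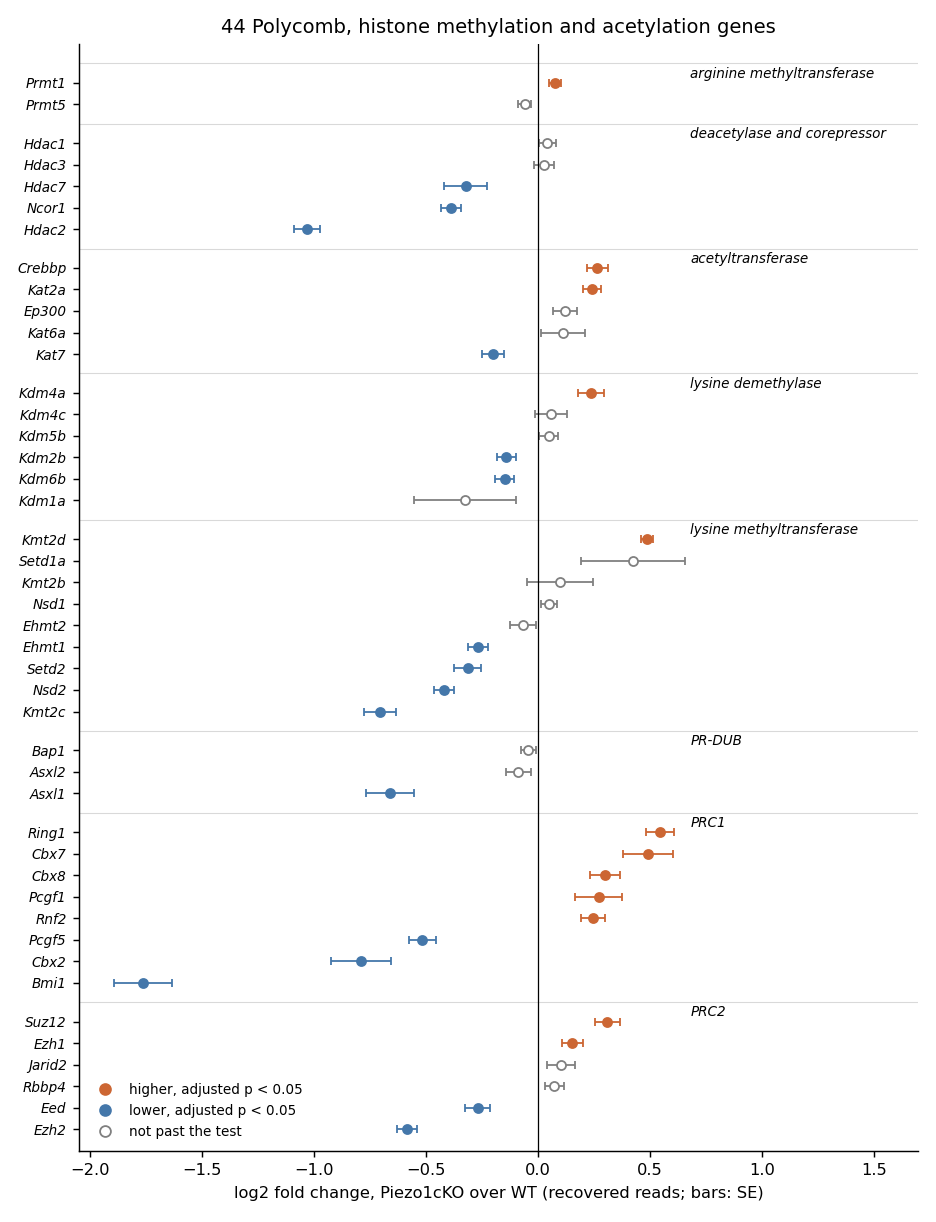
Log2 fold change of each of the 44 members (x axis, Piezo1cKO over WT, recovered reads, bars are SE, 3 libraries a group), grouped by class on the y axis. Bmi1 (-1.77) and Hdac2 (-1.03) lie far to the left, while no member lies beyond 0.55 on the right.

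Among the members, the larger changes were mostly losses. A DEG was a gene with a change of more than 1 log2 unit, up or down, that also passed the test. By this rule 0 members were DEGs on the deposited values, beside 0.818% of all genes. On recovered reads 2 members passed them, Bmi1 and Hdac2, both lower, beside 8.82% of the 10246 genes with at least 50 reads. At a 1.5-fold change 5 members were lower (Bmi1, Cbx2, Asxl1, Kmt2c and Hdac2) and 0 were higher, beside 21.2% of those genes in either direction. Changes within 0.5 on the log2 scale made up 36 of 44 members (81.8%) and 73.9% of those genes. Losses of 0.5 to 0.75 were seen in 9.1% of members and 6.0% of those genes, and losses of 0.75 to 1 in 2.3% and 3.0%. Gains of 0.5 to 0.75 were seen in 2.3% and 5.6%, and gains of 0.75 to 1 in 0.0% and 2.7%. The direction of the larger changes was not tested against all genes.

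**Figure D2:**
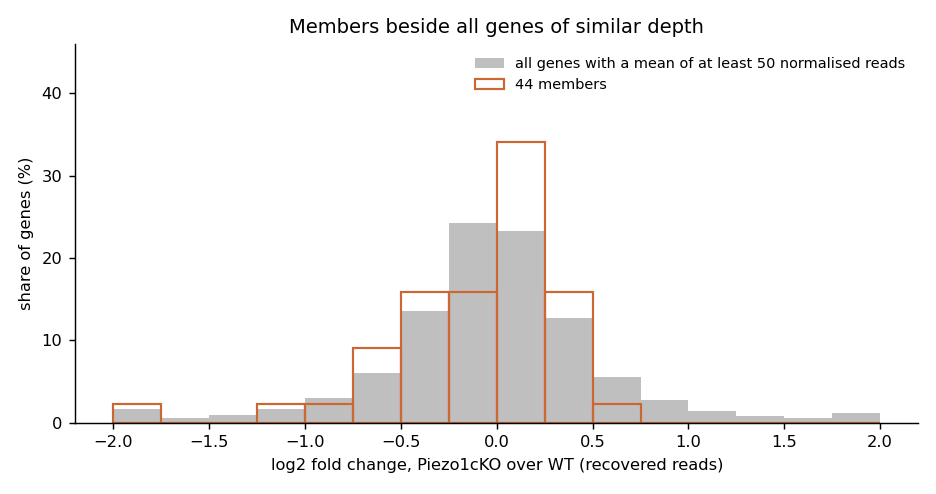
Share of genes (y axis, percent) in bins of log2 fold change on recovered reads (x axis), for all 10246 genes with a mean of at least 50 normalised reads (grey) and for the 44 members (outlined); the outermost bins also hold all genes beyond the axis. Both distributions centre near 0, with medians of -0.014 and 0.034.

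PRC1 was the class in which every member passed the test, 5 higher and 3 lower out of 8. Beside this, 63.0% of all genes passed, and 75.0% of 16 further PRC1 genes. Bmi1, the PCGF subunit best known for stem cell self-renewal, had 262.0, 240.2 and 233.8 normalised reads in the WT libraries and 74.2, 61.4 and 81.4 in the Piezo1cKO libraries. Every Piezo1cKO library was thus below every WT library, and the Piezo1cKO mean was 29.5% of the WT mean. Its log2 fold change was -1.77 ± 0.13 (SE) on recovered reads and -0.68 ± 0.04 on the shrunken deposited values (adjusted p = 1.67e-08 and 7.82e-11). Leaving out any 1 library kept it between -1.86 and -1.65 on reads.

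Cbx2, which reads the PRC2 mark within canonical PRC1, had 117.4, 113.0 and 123.1 normalised reads in WT and 61.6, 72.1 and 70.2 in Piezo1cKO libraries. It fell to 57.7% of the WT mean, by 0.79 ± 0.13 on the log2 scale of recovered reads (adjusted p = 0.00011). Pcgf5, a PCGF subunit of variant PRC1, had 1121.7, 1082.9 and 986.1 normalised reads in WT and 798.1, 695.0 and 738.7 in Piezo1cKO libraries, 69.9% of the WT mean (log2 fold change -0.52 ± 0.06, adjusted p = 3.37e-06). The groups of both genes were clear of each other.

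The other PRC1 members moved the opposite way. Ring1, one of the paired E3 ligases of the complex, rose from 358.0, 395.6 and 379.1 normalised reads to 534.9, 562.4 and 554.6, which is 146% of the WT mean (log2 fold change 0.55 ± 0.06, adjusted p = 2.40e-06). No other member rose by more on recovered reads. Rnf2, the other E3 ligase, went from 923.7, 919.4 and 845.7 to 1113.6, 995.2 and 1081.6 normalised reads (0.25 ± 0.05, adjusted p = 0.0011). Both ligases were therefore higher while Bmi1 was lower. Cbx7 and Cbx8, further readers of the PRC2 mark, rose to 140% and 123% of their WT means (adjusted p = 0.0014 and 0.0011). Pcgf1, which recruits variant PRC1 with Kdm2b, was at 120% of the WT mean (0.27 ± 0.10, adjusted p = 0.034), and its call was lost on the deposited values without WT replicate 2 or 3 or Piezo1cKO replicate 1 or 2 (log2 fold changes of 0.07 to 0.13), and held in only 1 of the 6 fits of the reads that leave out a library (0.16 to 0.37).

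Per length, the order of the PRC1 members in WT LSCs was headed by Rnf2 at 217.2 ± 10.6 (SD, n = 3) normalised reads per kb of exon, followed by Cbx8 at 137.0 ± 8.3, Ring1 at 116.4 ± 5.8 and Pcgf1 at 115.1 ± 17.3, and Ring1 and Pcgf1 did not differ beyond their spread. Pcgf5 (84.2 ± 5.5), Bmi1 (61.7 ± 3.7), Cbx2 (27.7 ± 1.2) and Cbx7 (20.2 ± 2.2) came after them. In Piezo1cKO LSCs Bmi1 had 18.2 reads per kb and Cbx2 16.0, and Cbx7, with 28.4, stood above both. The order between genes depends on the length used, which here is that of all exons joined. For Pcgf5 it is 12629 bases, beside 6443 in its longest transcript, and for Cbx8 3675 beside 3580. The SDs cover only the spread between libraries.

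PRC2 held 6 members, of which 2 were higher, 2 were lower and 2 did not pass. Ezh2, the main H3K27 methyltransferase of dividing cells, had 1494.3, 1440.1 and 1439.2 normalised reads in WT and 1008.1, 954.3 and 955.5 in Piezo1cKO libraries. It was at 66.7% of the WT mean, with no overlap between the groups (log2 fold change -0.58 ± 0.04, adjusted p = 2.28e-08). Its paralogue Ezh1, which is used more by resting cells, had 728.7, 742.8 and 745.6 in WT and 835.7, 809.0 and 821.1 in Piezo1cKO libraries (0.15 ± 0.05, adjusted p = 0.011), a small gain that also left the groups apart. Among the scaffold subunits, Eed, which binds the methyl mark, was at 83.2% of the WT mean (-0.27 ± 0.06, adjusted p = 0.00067), and Suz12 was at 124% (0.31 ± 0.05, adjusted p = 0.00016). The cofactor Jarid2 (0.10 ± 0.06) and the histone chaperone Rbbp4 (0.07 ± 0.04) did not pass, and some exon bases of Rbbp4 also lie in a gene on the other strand. The proliferation genes listed above were also mostly lower, with a median of -0.22 on recovered reads. Top2a (-0.58), Rrm2 (-0.55) and Uhrf1 (-0.49) came near Ezh2, and of these genes only Bub1 (-0.62) fell by more than Ezh2. Whether the loss of Ezh2 goes with theirs was not tested. Mki67 (-0.10) and Mcm4 (0.06) did not pass the test, and Tyms (0.09) was higher.

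**Figure D3:**
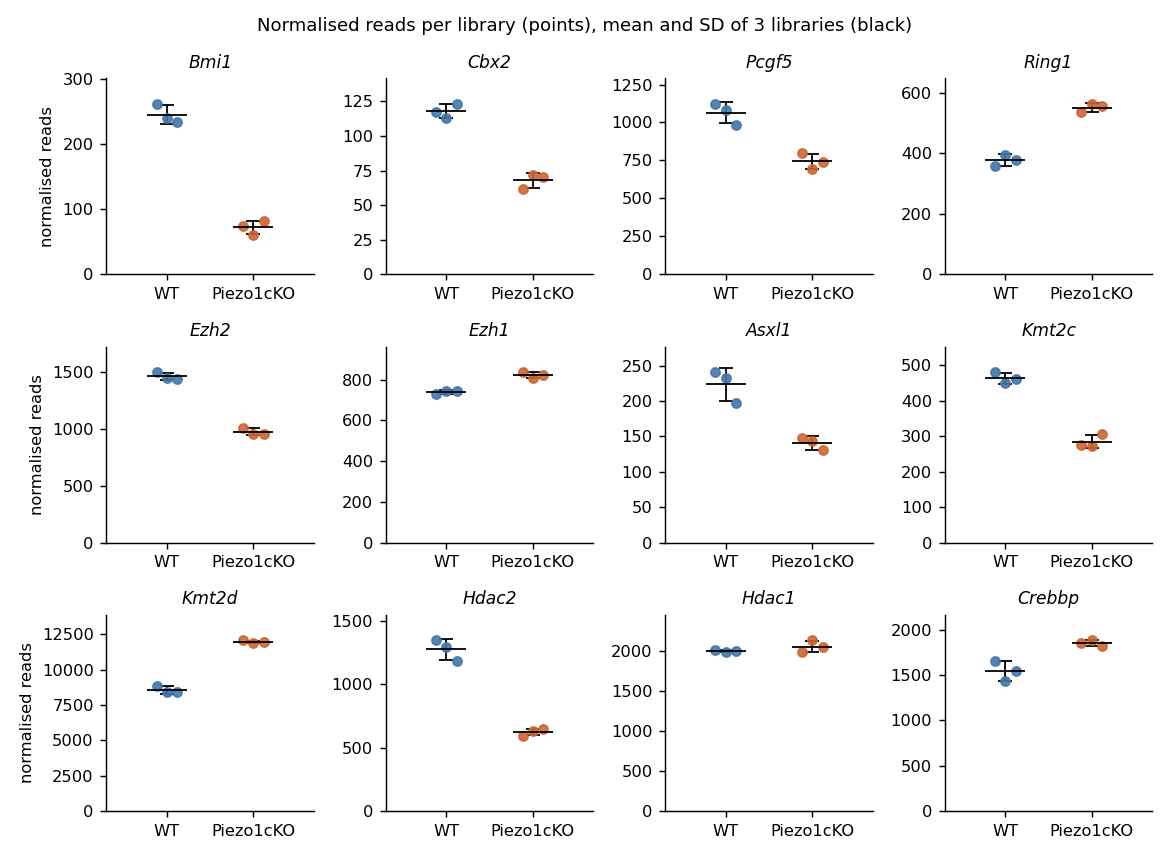
Normalised reads (y axis, starting at 0) of 12 members in the 3 WT and 3 Piezo1cKO libraries (points), with mean and SD in black. The groups are apart for every gene shown except Hdac1, which had 1985 to 2007 reads in WT and 1987 to 2130 in Piezo1cKO.

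In PR-DUB only Asxl1 passed the test. Asxl1, a cofactor of the deubiquitinase and a gene often mutated in myeloid neoplasms, had 240.6, 232.1 and 197.2 normalised reads in WT and 148.3, 143.3 and 130.2 in Piezo1cKO libraries. Its Piezo1cKO mean was 63.0% of the WT mean (log2 fold change -0.66 ± 0.11, adjusted p = 7.90e-05), with all Piezo1cKO libraries below all WT libraries. Asxl2 (-0.09 ± 0.06) and the catalytic subunit Bap1 (-0.04 ± 0.04) did not pass, and Bap1 had the highest level per length of the class, with 459 reads per kb in WT.

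Among 9 lysine methyltransferases 1 was higher, 4 were lower and 4 did not pass. Kmt2c and Kmt2d, paralogues that methylate H3K4 at enhancers, moved in opposite directions. Kmt2c had 480.3, 450.1 and 460.8 normalised reads in WT and 274.7, 272.9 and 306.3 in Piezo1cKO libraries, 61.4% of the WT mean (log2 fold change -0.71 ± 0.07, adjusted p = 6.16e-07). Kmt2d, the most abundant member in reads, had 8876, 8385 and 8396 in WT and 12065, 11917 and 11955 in Piezo1cKO libraries, 140% of the WT mean (0.49 ± 0.03, adjusted p = 3.44e-10). The 3 libraries of each group lay close together for both genes.

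Nsd2, which methylates H3K36, was at 74.8% of the WT mean (-0.42 ± 0.04, adjusted p = 8.08e-07), and Setd2, which completes the trimethyl form of the same mark, was at 80.4% (-0.31 ± 0.06, adjusted p = 0.00027). Ehmt1, one of the paired enzymes that dimethylate H3K9, was at 83.1% (-0.27 ± 0.05, adjusted p = 0.00011). In contrast, its partner Ehmt2 (-0.07 ± 0.06), Nsd1 (0.05 ± 0.04), Kmt2b (0.10 ± 0.15) and Setd1a (0.42 ± 0.23) did not pass. Setd1a is uncertain, as 52.3% of its exon bases overlap another gene on the same strand and its Piezo1cKO libraries ran from 53.3 to 106.8 reads.

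The 6 lysine demethylases changed little, with 1 higher, 2 lower and 3 not past the test. Kdm4a, which acts on H3K9 and H3K36, was at 118% of the WT mean (0.24 ± 0.06, adjusted p = 0.0019). Kdm6b, which removes the PRC2 mark, was at 90.2% (-0.15 ± 0.04, adjusted p = 0.0066), and Kdm2b, the DNA-binding subunit of variant PRC1, at 90.6% (-0.14 ± 0.04, adjusted p = 0.0077). On the deposited values the call of Kdm6b was lost without WT replicate 1 and that of Kdm2b without WT replicate 3. Kdm1a (LSD1), a drug target in AML, had 90.2, 48.4 and 95.2 normalised reads in WT and 53.3, 60.4 and 66.1 in Piezo1cKO libraries. WT replicate 2 was below every Piezo1cKO library, and the difference did not pass (-0.33 ± 0.23, adjusted p = 0.22), whereas without that library it did (-0.63). Kdm4c (0.06 ± 0.07) and Kdm5b (0.05 ± 0.04) did not pass either.

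Among 5 acetyltransferases 2 were higher and 1 was lower. Crebbp (CBP) had 1650.5, 1430.0 and 1545.1 normalised reads in WT and 1853.2, 1880.3 and 1818.3 in Piezo1cKO libraries, 120% of the WT mean (log2 fold change 0.26 ± 0.05, adjusted p = 0.00019). Its paralogue Ep300 had 805.3, 753.9 and 854.3 in WT and 872.3, 856.8 and 892.4 in Piezo1cKO libraries. All Piezo1cKO values of Ep300 were above the WT values, but by a margin of only a few reads, and the difference did not pass (0.12 ± 0.05, adjusted p = 0.064). Kat2a (GCN5), of the SAGA and ATAC coactivators, rose to 118% of the WT mean (0.24 ± 0.04, adjusted p = 9.84e-05). Kat7 (HBO1), which acetylates H3K14, fell to 87.2% (-0.20 ± 0.05, adjusted p = 0.0023), and Kat6a (0.11 ± 0.10) did not pass.

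Of the 5 deacetylases and corepressors 3 were lower, 0 were higher and 2 did not pass. Hdac2 had 1345.8, 1296.8 and 1185.3 normalised reads in WT and 594.4, 627.7 and 644.1 in Piezo1cKO libraries. The highest Piezo1cKO library thus had fewer reads than the lowest WT library, and the Piezo1cKO mean was 48.8% of the WT mean (log2 fold change -1.03 ± 0.06, adjusted p = 7.86e-10). Without WT replicate 1 the change was -0.99, just short of the DEG thresholds, which left Bmi1 as the 1 member past them on reads. Hdac1, its partner in the NuRD, Sin3 and CoREST complexes, had 2006.6, 1985.1 and 1995.3 in WT and 1986.9, 2129.8 and 2043.2 in Piezo1cKO libraries. These groups overlapped and the difference did not pass (0.04 ± 0.04, adjusted p = 0.36). Ncor1, the corepressor that activates Hdac3, was at 76.4% of the WT mean (-0.39 ± 0.05, adjusted p = 2.82e-06), and the class IIa deacetylase Hdac7 was at 79.9% (-0.32 ± 0.10, adjusted p = 0.0087). Hdac3 itself did not pass (0.03 ± 0.04).

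The arginine methyltransferases were the most abundant members per length together with Kdm6b. Prmt1, which methylates histone H4, had 2019 reads per kb in WT LSCs and was at 105% of the WT mean (0.07 ± 0.03, adjusted p = 0.026), a call that was lost on the deposited values without WT replicate 1 or 3 or Piezo1cKO replicate 2 or 3 (0.04 to 0.06), and held in 3 of the 6 fits of the reads that leave out a library (0.05 to 0.09). Prmt5, which places symmetric dimethyl marks, had 4376.1, 4397.0 and 4402.4 normalised reads in WT and 4235.0, 4276.2 and 4132.2 in Piezo1cKO libraries. Its groups did not overlap, yet at 96.0% of the WT mean the difference did not pass (-0.06 ± 0.03, adjusted p = 0.085).

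Secondly, the balance between paralogues that share a complex or substrate was compared library by library. The measure was the log2 ratio of their reads, which needs no scaling between libraries. Of 10 pairs, 7 had ratios that did not overlap between the groups. Among single genes 66.6% did not overlap, but no such share was computed for ratios of other gene pairs. Hdac1 to Hdac2 rose from 0.58, 0.61 and 0.75 in WT to 1.74, 1.76 and 1.67 in Piezo1cKO libraries, so that Hdac1 went from 1.57 to 3.30 reads for each read of Hdac2. Kmt2c to Kmt2d went from -4.21, -4.22 and -4.19 to -5.46, -5.45 and -5.29, a change of -1.19 that was the largest of the pairs tested. Ezh1 to Ezh2 went from -1.04, -0.96 and -0.95 to -0.27, -0.24 and -0.22, a ratio of reads of 0.507 in WT and 0.845 in Piezo1cKO.

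Smaller shifts were seen for Asxl2 to Asxl1 (0.58), Nsd1 to Nsd2 (0.47), Ring1 to Rnf2 (0.30) and Kdm4c to Kdm4a (-0.18). The groups overlapped for Cbx7 to Cbx8, Ehmt1 to Ehmt2 and Crebbp to Ep300, with changes of 0.19, -0.20 and 0.14. The exact permutation test of 3 against 3 libraries, two-sided, cannot give a p below 0.10, so no pair could pass 0.05, and the 7 separated pairs had an adjusted p of 0.14 over the 10 pairs. The fits across all genes give the direction of each gene alone.

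**Figure D4:**
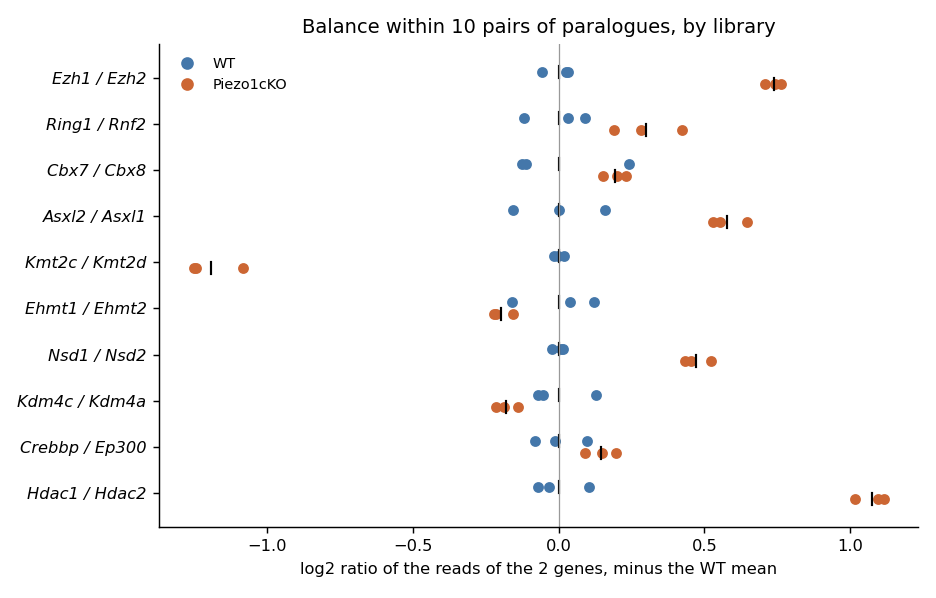
Log2 ratio of the reads of the 2 genes of each pair in each library, minus the WT mean of that pair (x axis), for 10 pairs (y axis); black ticks are group means of 3 libraries. Hdac1 / Hdac2 moved by 1.08 and Ezh1 / Ezh2 by 0.74 to the right, and Kmt2c / Kmt2d by 1.19 to the left.

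The make-up of whole families was then described per length, as shares of the summed reads per kb of exon. Among 6 PCGF genes, Bmi1 held 17.1% ± 0.69 (SD, n = 3) in WT and 6.19% ± 0.77 in Piezo1cKO LSCs, and Pcgf1 held 31.7% ± 2.6 and 47.1% ± 1.6. The summed PCGF level was 361.9 ± 27.9 reads per kb in WT and 293.8 ± 5.4 in Piezo1cKO. Among 5 Polycomb CBX genes, Cbx8 held 58.3% ± 1.3 in WT and 66.6% ± 1.8 in Piezo1cKO, and Cbx2 11.8% ± 0.24 and 6.32% ± 0.46, while their sum was 235.2 ± 11.9 and 252.8 ± 14.4 reads per kb. Hdac2 held 21.8% ± 0.92 of the class I deacetylases in WT and 11.9% ± 0.35 in Piezo1cKO, and the sum of that family was 1306 ± 33 and 1165 ± 20 reads per kb. Ezh2 held 68.7% ± 0.72 and 56.9% ± 0.45 of the EZH pair, whose sum fell from 317.6 ± 3.5 to 256.1 ± 6.3 reads per kb. The shares of Bmi1, Pcgf1, Cbx8, Cbx2, Hdac2 and Ezh2 did not overlap between the groups. These shares describe transcripts, depend on the length used for each gene, and were not tested.

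**Figure D5:**
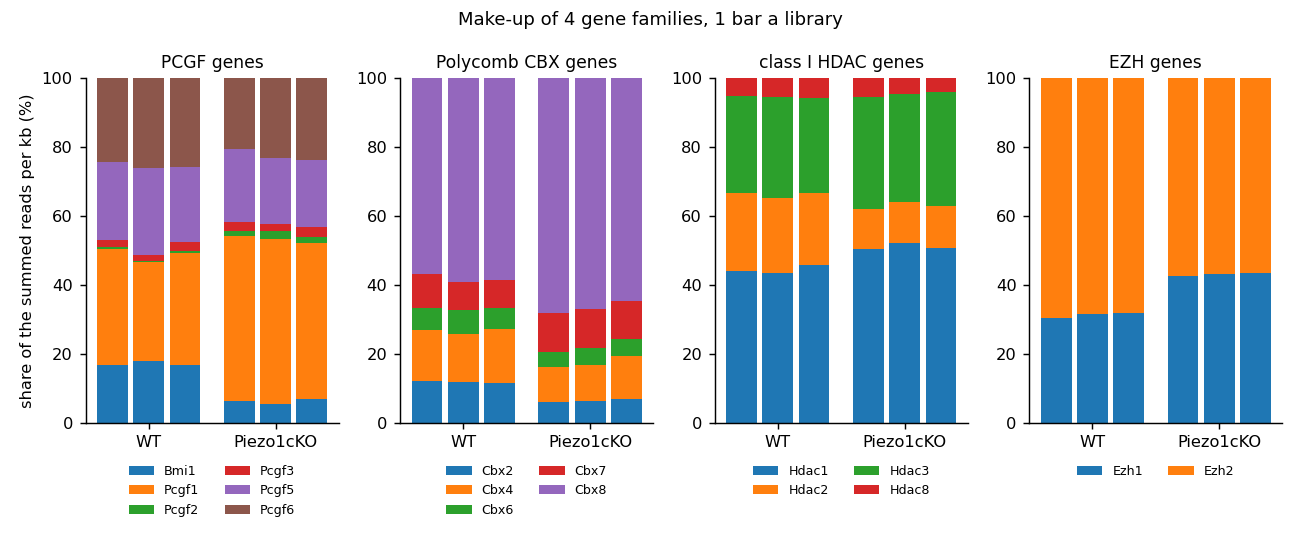
Share of each gene in the summed reads per kb of exon of its family (y axis, percent), 1 bar a library, for the PCGF, Polycomb CBX, class I HDAC and EZH genes. The Bmi1 segment shrinks from 17.1% to 6.19%, the Cbx2 segment from 11.8% to 6.32% and the Hdac2 segment from 21.8% to 11.9%.

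Finally, 134 further genes of the same complexes and enzyme classes were examined. Of 133 tested, 43 were higher and 46 were lower, 66.9% in all, near the 63.0% of all genes. The further PRC2 genes had 0 higher and 3 lower of 6. Epop, which links PRC2 to Elongin BC, fell from 159.1, 170.6 and 174.1 to 33.4, 52.6 and 38.7 normalised reads (log2 fold change -2.02 ± 0.17, adjusted p = 7.33e-08), and Mtf2, a Polycomb-like subunit, fell by 0.43 ± 0.05. In the remaining PRC1 genes, 6 were higher and 6 lower of 16. Phc2, a polyhomeotic subunit that clusters canonical PRC1, rose from 43.7, 46.4 and 41.4 to 99.2, 105.3 and 115.0 normalised reads (1.27 ± 0.16, adjusted p = 4.74e-06), and Scmh1 rose by 0.47 ± 0.09. The variant PRC1 subunits Yaf2 (-0.78 ± 0.05) and Pcgf6 (-0.47 ± 0.07) were lower.

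Of 6 tested partners of PR-DUB, 2 were higher and 2 lower. Foxk1, a DNA-binding partner of Bap1, fell from 202.8, 180.6 and 174.1 to 48.1, 60.4 and 45.8 normalised reads (-1.85 ± 0.15, adjusted p = 6.06e-08). Mbd6 was lower by 0.24 and Hcfc1 higher by 0.15. The lysine methyltransferase group had 9 higher and 10 lower of 27. Ncoa6, a subunit of the Kmt2c and Kmt2d complexes, fell from 108.7, 78.7 and 107.8 to 25.1, 17.5 and 19.3 normalised reads (-2.23 ± 0.24, adjusted p = 1.35e-06), and Suv39h2, which trimethylates H3K9, fell by 1.13 ± 0.13. Kmt2a (0.61 ± 0.08) and the SET1 subunit Wdr82 (0.60 ± 0.11) were higher, although reads of the MLL-AF9 transgene were not told apart from Kmt2a here.

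Of 17 further demethylase genes 5 were higher and 9 lower. Kdm7a (-0.81 ± 0.12) and Riox2 (-0.66 ± 0.05) led the losses, and Jmjd1c (0.55 ± 0.04) and Kdm5a (0.31 ± 0.05) the gains, with 22.4% of the exon bases of Riox2 shared with Crybg3. Of 23 further acetyltransferase genes 6 were higher and 6 lower. Jade3 (-1.19 ± 0.19) and Jade1 (-0.76 ± 0.07), scaffolds of the Kat7 complex, were lower, whereas their paralogue Jade2 was higher (0.31, adjusted p = 0.028). Ncoa3 (0.67 ± 0.03), a nuclear receptor coactivator, and Trrap (0.55 ± 0.04), a scaffold of SAGA and NuA4, were higher.

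Of 28 further deacetylase and corepressor genes 12 were higher and 6 lower. Sirt1, an NAD-dependent deacetylase, rose from 20.4, 21.2 and 19.2 to 97.2, 69.2 and 85.5 normalised reads (2.01 ± 0.23, adjusted p = 2.23e-06), with every Piezo1cKO library above every WT library, and Chd3, a NuRD remodeler, rose by 0.72 ± 0.09. Tbl1x (-0.42 ± 0.07), of the Ncor1 complex, and the class I deacetylase Hdac8 (-0.42 ± 0.09) were lower. Around the arginine methyltransferases 3 genes were higher and 4 lower of 10. Coprs, which tethers Prmt5 to histones, rose by 0.67 ± 0.08 and Prmt2 by 0.52 ± 0.17, whereas Prmt9 fell by 0.61 ± 0.10 and Wdr77, the partner of Prmt5, by 0.30 ± 0.05, with 31.5% of its exon bases shared with another gene.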

How the data were processed

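RNA-seq libraries of 3 WT and 3 Piezo1cKO LSC samples were analysed. Per the labels, the authors used fastp (0.20.1) for trimming, HISAT2 (2.2.1) for alignment to the mouse build GRCm38, featureCounts (2.0.1) for gene counts and DESeq2 (1.28.1) for normalization. The libraries were made with a Smart-seq2 based, oligo-dT primed method that does not mark strand, so overlapping genes cannot be told apart. The deposited values are on a log2 scale with the form of a regularized log, and 0 per-sample columns were left out. In R (4.3.3), limma (3.58.1) was run on the 16746 genes whose mean was at least 1, with a linear model of group alone, variances moderated along a trend, and Benjamini-Hochberg adjustment over all of them.

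The transform was undone by fitting size factors, shrinkage and dispersion trend, after which 94.1% of values lay within 0.1 of a whole read. On simulated reads of 11080 genes 100% came back exactly. These were made with the same form of transform, so they cannot show that the deposited values were made that way. Values that did not come out whole, a larger share of them above 1000 reads than below, were rounded. Of values of genes with a mean of 1000 to 10000 reads 79.9% came out whole, and of those above 10000 reads 29.0%. Recovered reads of 17352 genes with at least 10 reads in total were fitted with limma-voom. Reads per kb used the union of exons in GENCODE M21 (GRCm38).

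Full values by library are given for members with an adjusted p under 0.05 and a log2 fold change of at least 0.5 in size on recovered reads, and for Ezh1, Ezh2, Bmi1, Rnf2, Kdm1a, Hdac1, Crebbp, Ep300 and Prmt5. Of each wider class, the 2 higher and 2 lower genes with the largest changes past the test in both fits and with at least 50 normalised reads are named. The members and lists were chosen with earlier results of these data known, and the 4 families after values were seen. The proliferation genes named singly, Jade2 and the cell type markers singled out were also named, and Kmt2d given by library, after their values were seen. Alternatives were other filters and scalings, the replicate block, each library left out and the fit of reads. 1 marker gene is not reported here.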

Additional observations from a re-analysis of the deposited data

How the results depend on the processing

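The counts of members past the test stayed close under all alternatives run, with 10 to 15 members higher and 15 to 17 lower, against 12 and 16. The wider genes gave 38 to 47 higher and 44 to 48 lower. The number of members past the DEG thresholds was 0 on the deposited values and stayed at 0 when any 1 library was left out, but it was 2 on recovered reads, 2 with library totals as the scaling, 2 with the replicate block on reads (added after the data were seen), and 5 at a 1.5-fold change on reads. That difference is built into the deposited values, whose differences are shrunken. With the replicate block on the deposited values 15 members were higher and 17 lower, as Rbbp4, Setd1a, Ep300 and Prmt5 passed the test. The labels do not say that a number marks a shared mouse, and deviations from the group means correlated at 0.195, 0.161 and 0.0696 for equal numbers, so these were not taken to pair the libraries, although each library correlated best with that of its own number, a hint from the data only.

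Of the 44 members, 33 kept their call in every alternative run, and 11 changed it in at least 1: Jarid2, Rbbp4, Pcgf1, Kmt2b, Setd1a, Kdm1a, Kdm2b, Kdm6b, Ep300, Prmt1 and Prmt5. The fold changes of 2 members changed sign without passing the test in the altered direction, Kmt2b (-0.0007 to 0.1046 with each library left out, lowest without Piezo1cKO replicate 3) and Hdac3 (-0.0088 to 0.0421, lowest without WT replicate 3), and the cause was not tested. The number of paralogue pairs whose groups did not overlap was 7, 9 as the difference of the deposited log2 values, and 7 to 9 with each library left out. Medians of the libraries differed by at most 0.030 on the log2 scale. Kdm1a and Setd1a, with means under 100 normalised reads, had SEs above 0.2 on reads, so changes of their size could not be told from the spread.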

Other observations

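Genes of histone variants, on which the marks above are placed, were also measured. Of 10 such genes 5 were higher, 1 was lower and 4 did not pass the test on the deposited values, and H2afx lost its call on recovered reads. H3f3b, which encodes the replacement histone H3.3, had 65837, 65230 and 66798 normalised reads in WT and 48137, 47699 and 48429 in Piezo1cKO libraries (log2 fold change -0.46 ± 0.01, limma-voom adjusted p = 5.63e-13). H3f3a, which encodes the same protein, went from 3113, 2973 and 3157 to 3679, 3633 and 3571 (0.24 ± 0.03, adjusted p = 2.02e-05). The linker histone gene H1f0 was higher by 0.18 ± 0.03, and H2afz and H2afv did not pass.

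Of 19 genes that Polycomb is known to silence in many cell types, 14 had at most 3 normalised reads in every library of both groups, and 7 had no read in any. Cdkn1c, which encodes the cell cycle inhibitor p57, had 57.2, 49.4 and 52.0 normalised reads in WT and 7.3, 3.9 and 13.2 in Piezo1cKO libraries (-2.78 ± 0.35, limma-voom adjusted p = 6.09e-06). Cdkn2a, the locus of p16 and p19, had 6.8, 7.1 and 6.7 in WT and 4.2, 0.0 and 1.0 in Piezo1cKO libraries. Cdkn2b (6.1 to 8.7 in WT, 2.1 to 13.2 in Piezo1cKO) and Hoxb13 (9.6 to 18.2 and 18.5 to 28.5) did not pass. Only 4 of the 19 genes had enough reads to be tested on the deposited values (0 higher, 2 lower) and 5 on recovered reads (0 higher, 3 lower), so the list as a whole was not testable.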
